A study of Mus musculus with 2 samples.

Results

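The genes described here are 10 identity genes of the liver sinusoidal endothelium, Stab2, Oit3, Gpr182, Dnase1l3, Ehd3, Meis2, Ptprb, Gpihbp1, Egfl7 and Pecam1. They were taken by symbol, and all 10 were found among the 26078 genes of the deposited matrix. The study pulled down non-parenchymal liver cells (those other than hepatocytes) with beads against F4/80, a macrophage surface protein, from 2 untreated male mice aged 8 to 10 weeks. There was 1 mouse with the Spta sph/sph genotype and 1 Spta wt/wt littermate. Spta encodes the alpha chain of spectrin in the red cell skeleton, and sph/sph mice are a model of spherocytosis. Suspensions were made by collagenase perfusion and run in droplets, where the 3′ end of each transcript receives a barcode for its cell and a molecular tag (unique molecular identifier, UMI).

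Liver sinusoids are lined by a thin endothelium with open pores and no continuous basement membrane, so blood plasma reaches the hepatocytes directly. These endothelial cells take up waste macromolecules from the blood through scavenger receptors and lectins, and they release signals that act on neighbouring hepatocytes, stellate cells and macrophages. Kupffer cells, the resident macrophages, lie in the same sinusoids and touch the endothelium. The level of endothelial genes in Kupffer-type barcodes is therefore given beside each gene as a check on carry-over. This level alone cannot tell carried-over transcripts from the cells' own.

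Each barcode ends in 2 or 1, which splits the data into library 2 and library 1. The labels do not say which number belongs to which mouse. The libraries therefore carry no genotype below, and no difference between them is read as one of genotype. Library 2 held 9726 barcodes and 56947765 UMIs, and library 1 held 8907 barcodes and 33099802 UMIs. After the filters (a minimum of 200 genes and a maximum of 20% mitochondrial UMIs per barcode) 6942 barcodes were left in library 2 and 3488 in library 1, with medians of 4596.5 UMIs in library 2 and 2848 UMIs in library 1. There is 1 mouse behind each library and cells are not replicates, so no difference between libraries has a replicate check and no p-value is given. All intervals are 95% intervals that cover counting error only.

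Endothelial barcodes were gated on 15 markers that include none of the 10 genes (among them Kdr, Flt1, Tek and Cdh5), with at least 3 of them detected and at least 30 marker UMIs per 10000. The gate took 132 of 6942 barcodes in library 2, a share of 1.90% (1.59 to 2.25), and 262 of 3488 in library 1, a share of 7.51% (6.66 to 8.44). The beads select macrophages, so these shares describe what came through the pull-down and not the liver. The median endothelial barcode held 4287 UMIs in library 2 and 2901.5 UMIs in library 1. Within 10 marker UMIs per 10000 of the gate lay 36 barcodes below and 32 above it in library 2, and 21 below and 14 above it in library 1. A further 53 barcodes of library 2 and 61 of library 1 passed the endothelial gate and that of another lineage and were set aside. Kupffer-type barcodes, gated in the same way on 8 markers such as Clec4f, Vsig4 and Timd4, numbered 4250 in library 2 and 2316 in library 1.

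The libraries shared 955 barcode sequences. Among the kept barcodes, 44 in library 2 and 815 in library 1 had over 5 times as many UMIs under the same sequence in the other library. These shallow shared barcodes made up 0 of the endothelial barcodes of library 2 and 1 of those of library 1, but 30 of the Kupffer-type barcodes of library 2 and 544 of those of library 1. All 124 erythroid barcodes of library 1 were of this kind.

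The sinusoidal label was checked on 5 markers that belong neither to the gate nor to the 10 genes. Levels are given as CPM, the UMIs of a gene scaled to a fixed total of UMIs for its lineage and library. Clec4g, a sinusoidal lectin, had 1563 CPM in endothelial barcodes of library 2 and 1899 CPM in those of library 1. Fcgr2b, an Fc receptor that clears immune complexes, had 1464 CPM in library 2 and 2455 CPM in library 1. The other 3, Stab1, Lyve1 and Gata4, lay between 115 and 809 CPM in library 2 and between 237 and 1366 CPM in library 1. All 5 were more than 2-fold higher in endothelial than in Kupffer-type barcodes of both libraries. Of all genes tested, 24.3% were at least 2-fold higher in library 2 and 24.5% in library 1.

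Of the 10 genes, 4 lie on mouse chromosome 10, which holds 4.64% of the genes of the matrix. In GRCm38 with GENCODE annotation these are Stab2 (86841198 to 87008025, minus strand), Oit3 (59422958 to 59441778, minus), Gpr182 (127747276 to 127751732, minus) and Ptprb (116275523 to 116389535, plus). Meis2 (115863064 to 116065839, minus) and Egfl7 (26580014 to 26593120, plus) lie on chromosome 2. Pecam1 lies on chromosome 11 (106654217 to 106750628, minus), Dnase1l3 on 14 (7964533 to 7994573, minus), Gpihbp1 on 15 (75596628 to 75599481, plus) and Ehd3 on 17 (73804134 to 73832094, plus). Other genes of the matrix overlap 3 of them: Zbtb39 lies opposite Gpr182, Gm47625 lies on the strand of Ptprb, and Egfl7 overlaps Gm20532 on its own strand and Agpat2 on the other. How reads in such overlaps were counted is not given in the sources used here.

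RefSeq promoter windows of 300 bases (GRCm38.p6) were at hand for 4 of the 10 genes, Stab2, Ehd3, Egfl7 and Meis2. ETS family factors such as Erg and Ets1 are known regulators of endothelial genes, so their letters are marked. Whether such factors act on these 4 genes here was not tested. The 4 genes have 6 windows. The ETS letters AGGAAG, or CTTCCT on the other strand, occurred in 4 of these 6 windows and in 35.4% of all 32851 promoter windows. Counted by gene, 3 of the 4 had a match in at least 1 window. No share by gene over all genes was taken, and a gene with several windows has more chances of a match. These counts are therefore not read as an excess. Capitals mark these letters in the windows below. For Egfl7, which has several annotated starts and so several of the 6 windows, the window with the most matches is shown. Another of its windows held 2 matches, and a further one held none.
Stab2, chr10:87007893-87008192, minus strand: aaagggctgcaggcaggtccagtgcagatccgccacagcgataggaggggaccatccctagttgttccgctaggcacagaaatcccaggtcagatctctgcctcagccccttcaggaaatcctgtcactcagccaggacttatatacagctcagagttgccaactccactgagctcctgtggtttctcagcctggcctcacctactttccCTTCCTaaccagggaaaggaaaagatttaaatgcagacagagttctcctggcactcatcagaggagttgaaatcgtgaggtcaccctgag
Ehd3, chr17:73804591-73804890, plus strand: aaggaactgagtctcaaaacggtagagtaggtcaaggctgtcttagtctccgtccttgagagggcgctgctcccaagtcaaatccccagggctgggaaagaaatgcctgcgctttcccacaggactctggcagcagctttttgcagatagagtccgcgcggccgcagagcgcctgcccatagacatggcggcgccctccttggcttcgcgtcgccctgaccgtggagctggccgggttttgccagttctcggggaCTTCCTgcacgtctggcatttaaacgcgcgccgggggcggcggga
Egfl7, chr2:26580833-26581132, plus strand: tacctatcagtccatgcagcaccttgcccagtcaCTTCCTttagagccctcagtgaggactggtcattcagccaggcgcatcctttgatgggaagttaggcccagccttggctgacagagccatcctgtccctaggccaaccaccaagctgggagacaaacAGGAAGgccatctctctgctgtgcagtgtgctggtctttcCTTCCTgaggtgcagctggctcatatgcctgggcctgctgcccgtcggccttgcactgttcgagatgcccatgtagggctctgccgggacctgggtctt
The Stab2 and Ehd3 windows each held 1 match and the Egfl7 window held 3. The window of Meis2 held none. On both strands, the MEIS letters TGACAG occurred in 2 of the 6 windows and in 19.2% of all windows. These 2 windows belong to Egfl7 and Stab2, with no overlap with the ETS letters in the windows shown. The GATA letters AGATAA (11.2% of all windows) and the SOX letters ACAATG (12.6%) occurred in 0 of the 6. A match is a run of letters and not a measured binding site.

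All 10 genes were highest in the endothelial barcodes of both libraries and were far lower in Kupffer-type barcodes. The median gene was 65.7-fold higher in endothelial than in Kupffer-type barcodes of library 2 (log2 ratio 6.04) and 91.9-fold higher in those of library 1 (log2 ratio 6.52). All 10 were at least 2-fold higher in both libraries, as were 24.3% of 8810 genes tested in library 2 and 24.5% of 9664 in library 1. None of the 10 was at least 2-fold lower, as were 13.3% of the genes tested in library 2 and 13.7% in library 1. At least 10-fold higher were 8 of the 10 in library 2 and 9 of the 10 in library 1, against 8.26% and 7.91% of all genes tested in these libraries. Over all genes the median log2 ratio of endothelial over Kupffer-type barcodes was 0.26 in library 2 and 0.29 in library 1.

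**Figure D1:**
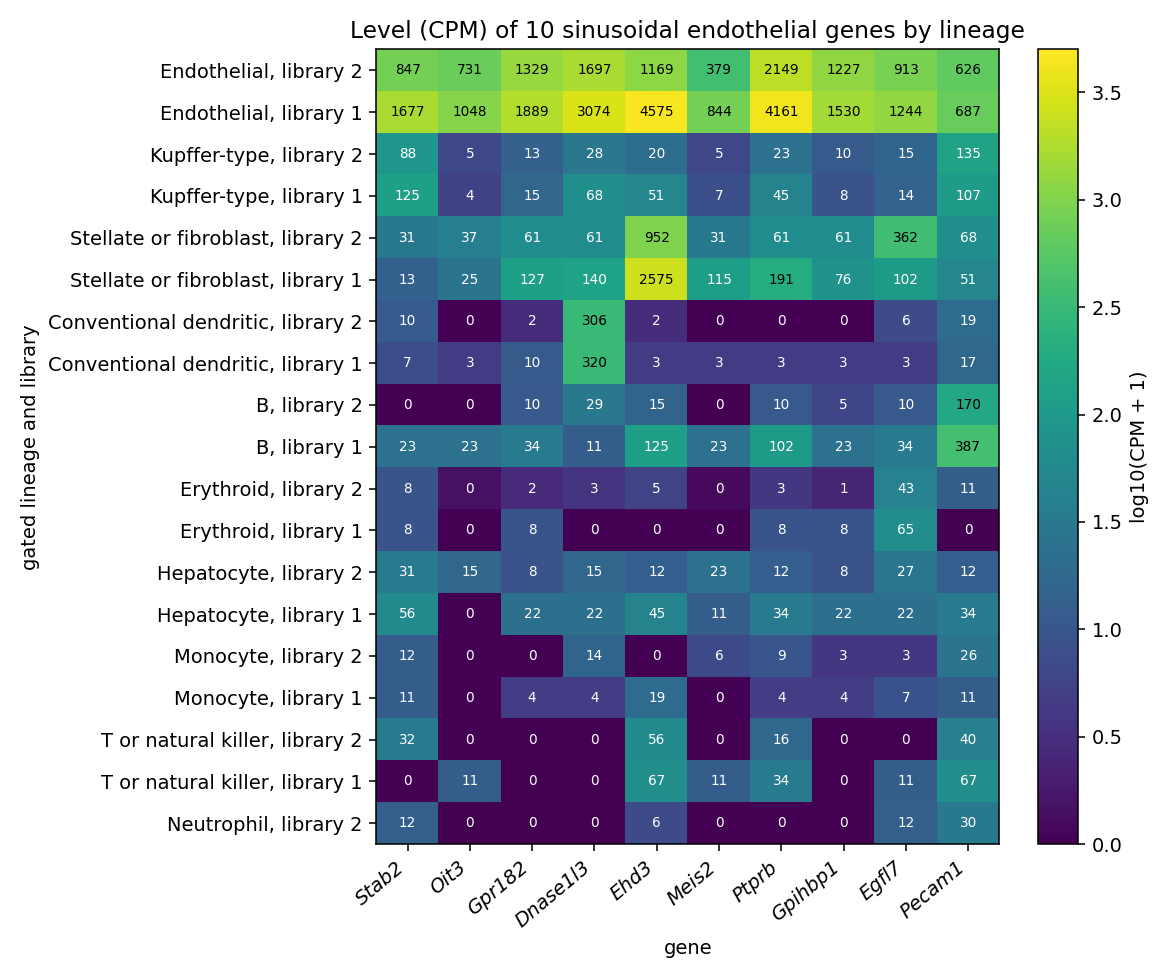
Level of each of the 10 genes (columns) in each gated lineage and library with at least 20 barcodes (rows), printed in CPM and coloured by log10(CPM + 1). The endothelial rows at the top hold the highest value of every gene; Ehd3 in stellate or fibroblast barcodes, with 952 CPM in library 2 and 2575 CPM in library 1, comes nearest to its endothelial level.

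Among the genes that handle blood-borne cargo, Stab2, the large scavenger receptor that clears hyaluronan, had 847 CPM (776 to 923) in endothelial barcodes of library 2 and 1677 CPM (1590.4 to 1768) in those of library 1. In Kupffer-type barcodes it had 87.7 CPM in library 2 and 125 CPM in library 1. The endothelial level was thus 9.66-fold higher in library 2 and 13.5-fold higher in library 1, the second-smallest ratio among the 10 genes. Dnase1l3, a secreted nuclease that digests DNA in chromatin and on particles, had 1697 CPM (1595 to 1803) in endothelial barcodes of library 2 and 3074 CPM (2956 to 3195) in those of library 1, 60.9-fold and 45.4-fold the Kupffer-type levels. A UMI of it was seen in 93.2% of endothelial barcodes of library 2 and in 96.9% of those of library 1. Its only other lineage above 100 CPM in both libraries was the conventional dendritic one, described further on.

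Ehd3, an ATPase that shapes recycling tubules of the endocytic pathway, had 1169 CPM (1085 to 1257) in endothelial barcodes of library 2 and 4575 CPM (4431 to 4723) in those of library 1. It was found in 86.4% of endothelial barcodes of library 2 and in 98.9% of those of library 1. Of the 10 genes it had the widest gap between the libraries. Its endothelial level was 57.3-fold the Kupffer-type level in library 2 and 89.2-fold in library 1.

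Gpihbp1, the membrane-anchored protein that carries lipoprotein lipase to the capillary lumen, had 1227 CPM (1141 to 1318) in endothelial barcodes of library 2 and 1529.6 CPM (1447 to 1616) in those of library 1. It was 123-fold higher than in Kupffer-type barcodes of library 2 and 195-fold higher than in those of library 1. The gene of its partner, Lpl, ran the other way: it had 486 CPM in endothelial and 3022 CPM in Kupffer-type barcodes of library 2, and 78.0 CPM in endothelial and 1494 CPM in Kupffer-type barcodes of library 1.

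Among the receptors, Gpr182, an atypical receptor that binds chemokines, had 1329 CPM (1240 to 1424) in endothelial barcodes of library 2 and 1889 CPM (1796 to 1984) in those of library 1. Its ratios over the Kupffer-type level were 106-fold in library 2 and 122-fold in library 1. Ptprb, the phosphatase that acts on the receptor Tie2 and on VE-cadherin, had 2149 CPM (2034 to 2268) in endothelial barcodes of library 2 and 4161 CPM (4024 to 4302) in those of library 1, in 94.7% and 99.2% of these barcodes. Both genes stood at about 1% of their endothelial level in Kupffer-type barcodes: Gpr182 at 0.946% in library 2 and 0.820% in library 1, and Ptprb at 1.05% in library 2 and 1.07% in library 1. Pecam1, an adhesion protein of endothelial junctions that leukocytes and platelets also carry, had 626 CPM (565 to 691) in endothelial barcodes of library 2 and 687 CPM (632 to 745) in those of library 1. It had the smallest endothelial ratio of the 10 genes, 4.63-fold over Kupffer-type barcodes in library 2 and 6.42-fold in library 1.

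Of the secreted and matrix proteins, Oit3, which carries a zona pellucida domain, had 731 CPM (665 to 802) in endothelial barcodes of library 2 and 1048 CPM (980 to 1120.0) in those of library 1. It had the largest ratio over the Kupffer-type level, 138-fold in library 2 and 255-fold in library 1. Egfl7, a protein that endothelial cells lay down in the vessel matrix, had 913 CPM (839 to 992) in endothelial barcodes of library 2 and 1244 CPM (1169 to 1322) in those of library 1. Meis2, a homeodomain transcription factor and the only nuclear regulator among the 10, had 379 CPM (332 to 431) in endothelial barcodes of library 2 and 844 CPM (783 to 909) in those of library 1. It was 69.9-fold above the Kupffer-type level in library 2 and 119-fold above it in library 1, and Egfl7 was 61.7-fold and 90.4-fold above it.

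**Figure D2:**
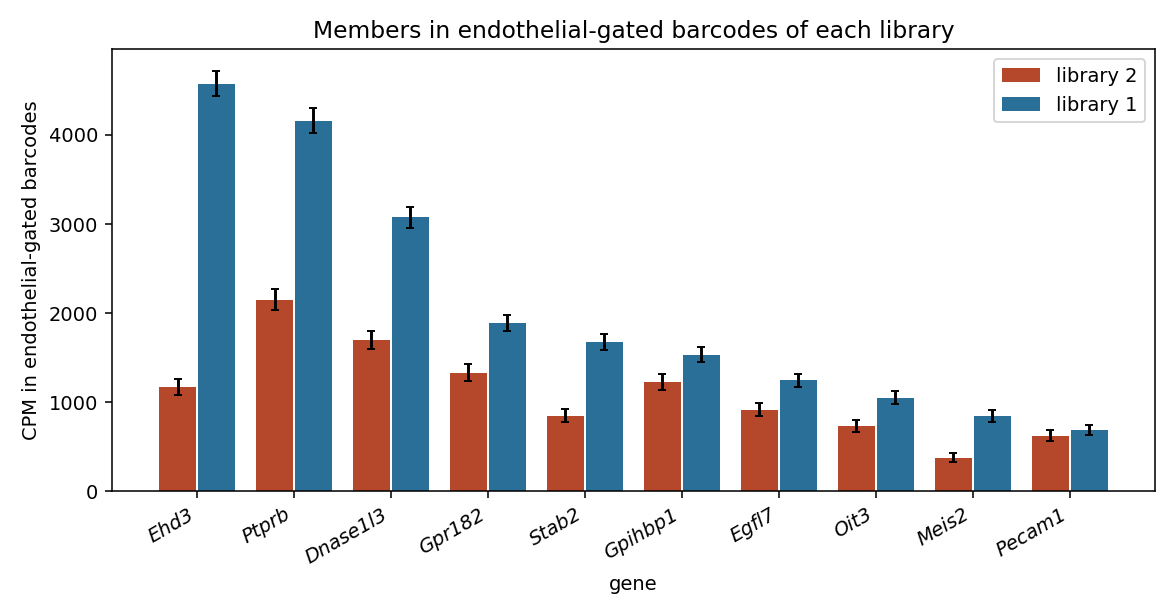
Level in CPM (vertical axis) of each gene in the endothelial barcodes of library 2 (left bars, 132 barcodes) and library 1 (right bars, 262 barcodes), with exact Poisson 95% intervals as whiskers. Library 1 has the higher CPM for every gene (5 turn when scaled by the gate markers), with the widest gap at Ehd3 (1169 CPM in library 2, 4575 CPM in library 1) and overlapping intervals at Pecam1 alone.

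Single endothelial barcodes carried most of the 10 genes at once. To compare barcodes at one depth, each was thinned to 1000 UMIs, which left 127 endothelial barcodes of library 2 (5 shallower ones left out) and 251 of library 1 (11 left out). At this depth the median endothelial barcode held 6 of the 10 genes in library 2 and 8 in library 1. At least 3 of the genes were present in 96.1% of endothelial barcodes of library 2 and 99.6% of those of library 1. In Kupffer-type barcodes the median was 0 in both libraries, and at least 3 genes were present in 0.864% of 3471 barcodes of library 2 (779 left out) and 0.966% of 1657 of library 1 (659 left out).

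**Figure D3:**
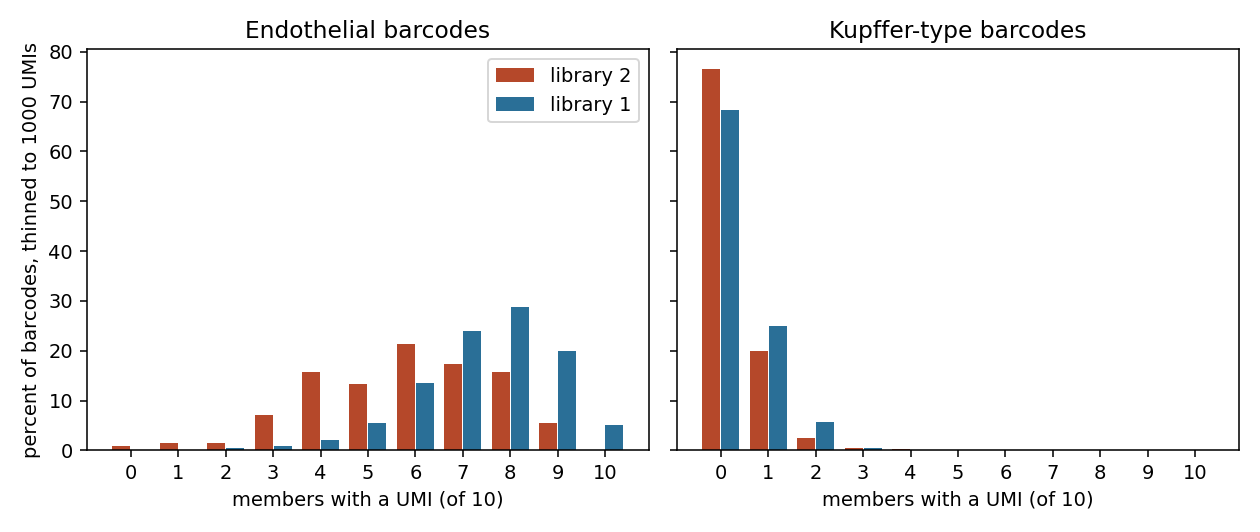
Percent of barcodes (vertical axis) with each number of the 10 genes detected (horizontal axis) after thinning every barcode to 1000 UMIs, for endothelial barcodes (left panel) and Kupffer-type barcodes (right panel) of library 2 and library 1. The endothelial medians are 6 in library 2 and 8 in library 1, and the Kupffer-type barcodes sit at 0, with 76.6% of them there in library 2 and 68.4% in library 1.

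The single genes differed in how often they were caught. At 1000 UMIs, Ptprb was the most widespread gene, in 79.5% of endothelial barcodes of library 2 and 98.4% of those of library 1. Meis2 was the least widespread in library 2, in 33.9% of endothelial barcodes there and in 57.8% of those of library 1. Pecam1 was the least widespread in library 1, in 44.9% of endothelial barcodes of library 2 and 51.4% of those of library 1. Before thinning, the median over the 10 genes of the share of endothelial barcodes with a UMI was 88.6% in library 2 and 89.9% in library 1. At 1000 UMIs it was 59.4% in library 2 and 73.7% in library 1, and every gene was then found in a smaller share of barcodes in library 2.

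In Kupffer-type barcodes the 10 genes fell into a set of 8 at low, unequal percentages of their endothelial level and a pair well above it. This grouping was drawn from these same values. The 8 were Oit3, Gpr182, Dnase1l3, Ehd3, Meis2, Ptprb, Gpihbp1 and Egfl7, which stood between 0.727% (Oit3) and 1.74% (Ehd3) of their endothelial level in library 2 and between 0.392% (Oit3) and 2.20% (Dnase1l3) in library 1. The pair was Pecam1, at 21.6% of its endothelial level in library 2 and 15.6% in library 1, and Stab2, at 10.4% in library 2 and 7.43% in library 1. Pecam1 had a UMI in 47.0% of Kupffer-type barcodes of library 2 and 31.1% of those of library 1, and Stab2 in 37.5% and 32.8%. For comparison, Ehd3 had a UMI in 7.27% of Kupffer-type barcodes of library 2 and 12.9% of those of library 1. The endothelial gate markers summed to 338 CPM in Kupffer-type barcodes of library 2 and 650.4 CPM in those of library 1. Cdh5 alone made up 258 CPM of this sum in library 2 and 534 CPM in library 1. The endothelial level of Cdh5 was only 2.71-fold its Kupffer-type level in library 2 and 1.56-fold in library 1.

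Stab2 and Pecam1 were also present where the other 8 genes were not seen at all. Among the 3256 Kupffer-type barcodes of library 2 with no UMI of the other 8, Stab2 had 81.2 CPM and Pecam1 129 CPM. Among the 1460 such barcodes of library 1, Stab2 had 109 CPM and Pecam1 103 CPM. Where at least 1 of the other 8 was present, Stab2 had 100.1 CPM in 994 barcodes of library 2 and 136 CPM in 856 barcodes of library 1. Pecam1 had 147 CPM and 110 CPM in these barcodes of library 2 and library 1. The barcodes without the other 8 were shallower, with medians of 4420 UMIs in library 2 and 1548 UMIs in library 1, against 9406.5 UMIs in library 2 and 6529.5 UMIs in library 1 for those with at least 1. Both genes were higher in the barcodes with at least 1 of the other 8 in both libraries, with overlapping intervals for Pecam1 in library 1.

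**Figure D4:**
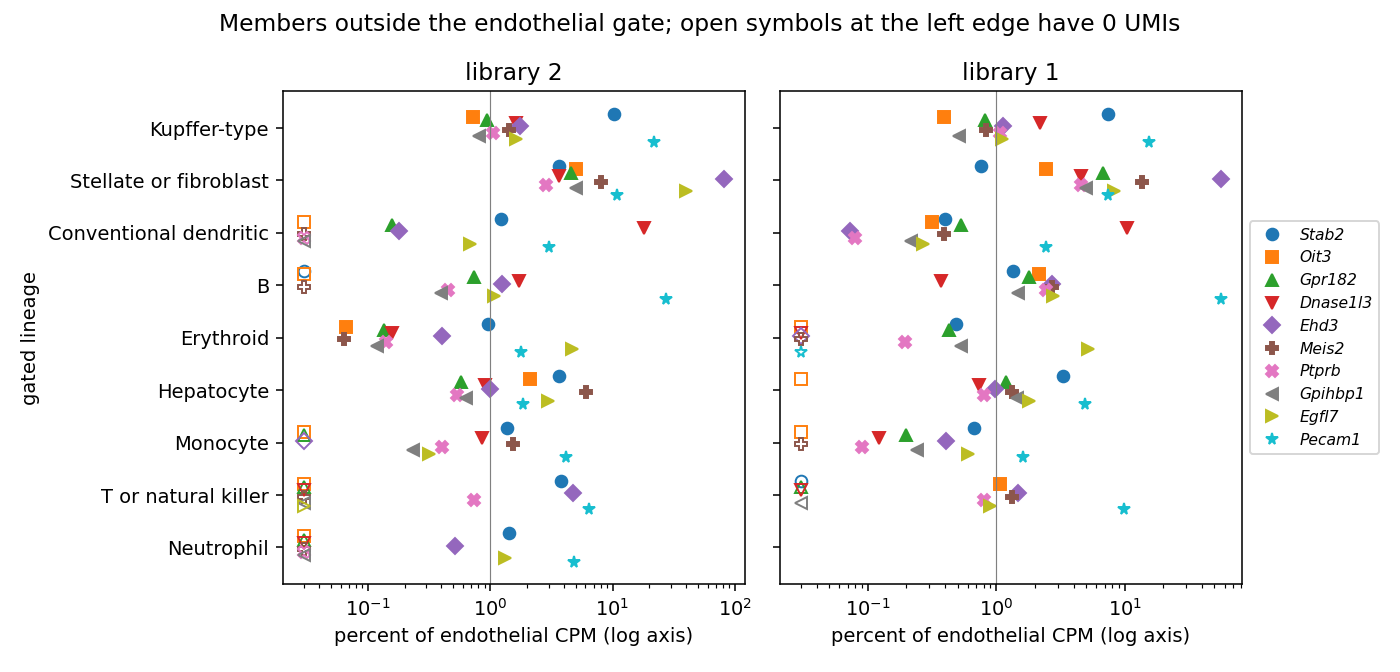
Level of each gene outside the endothelial gate as a percent of its own endothelial CPM (horizontal log axis, grey line at 1%) for each gated lineage (rows) in library 2 (left) and library 1 (right); open symbols at the left edge have 0 UMIs. Most genes lie near 1% in the Kupffer-type row, with Stab2 and Pecam1 to the right of them, and Ehd3 in the stellate or fibroblast row reaches 81.4% in library 2 and 56.3% in library 1.

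Outside the endothelial and Kupffer-type gates, most of the 10 genes stood at low percentages of their endothelial level. For 4 of them a lineage stood out, and these were picked after their values were seen. Ehd3 was high in stellate or fibroblast barcodes, at 952 CPM (808 to 1114) in 71 barcodes of library 2 and 2575 CPM (2232 to 2956) in 32 barcodes of library 1. The intervals of its stellate or fibroblast and endothelial levels overlapped in library 2 and did not in library 1. The summed endothelial gate markers stood at 645 CPM in stellate or fibroblast barcodes of library 2 and 1096 CPM in those of library 1, and the median of the 10 genes at 5.02% of the endothelial level in library 2 and 5.88% in library 1. Barcodes with none of 8 other genes of the set (Egfl7 was not among these 8) were also taken apart. Ehd3 had a UMI in 24 of 49 such stellate or fibroblast barcodes of library 2 and in 20 of 23 of library 1. Its level was 859 CPM in these and 1105 CPM in the rest in library 2, and 2123 and 3479 CPM in library 1. Their medians were 1573 UMIs in library 2 and 1809 UMIs in library 1, so low levels of the 8 genes could be missed. The source of Ehd3 there was not tested.

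Egfl7 was also seen in stellate or fibroblast barcodes. It stood at 362 CPM (276 to 467) in those of library 2, beside 913 CPM in endothelial barcodes. In library 1 it stood at 102 CPM (44.0 to 201), where it rests on 8 UMIs and is 8.20% of the endothelial level. Meis2 was seen in stellate or fibroblast barcodes on few UMIs, at 8.11% of its endothelial level in library 2 (5 UMIs) and 13.6% in library 1 (9 UMIs). In erythroid barcodes Egfl7 had 42.8 CPM (38.5 to 47.5) in library 2, from 353 UMIs in 19.0% of 712 barcodes. That was 4.69% of its endothelial level, whereas the median of the 10 genes in these barcodes was 0.149% of the endothelial level. The erythroid barcodes of library 1, all of them shallow shared barcodes, gave 8 UMIs of Egfl7 in 124 barcodes.

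Dnase1l3 had 306 CPM (258 to 360) in the 51 conventional dendritic barcodes of library 2 and 320.3 CPM (259 to 391) in the 28 of library 1. These levels were 18.0% of the endothelial level in library 2 and 10.4% in library 1, and the median of the 10 genes in these barcodes was 0.168% and 0.357%. Among dendritic barcodes with no UMI of the other 9 genes, Dnase1l3 was present in 19 of 37 in library 2 and in 12 of 17 in library 1. Its level was 226 CPM in these and 489 CPM in the rest in library 2, and 369 and 256 CPM in library 1. Pecam1 had 170.5 CPM (119 to 237) in the 66 B cell barcodes of library 2 and 387 CPM (268 to 540.1) in the 40 of library 1, from 35 and 34 UMIs. In B cell barcodes without the other 9 genes it was present in 22 of 53 in library 2 and in 11 of 27 in library 1. The level of Pecam1 was 192 CPM in these and 102 CPM in the rest in library 2, where the rest held 5 UMIs of it. In library 1 it was 281 and 580 CPM, with 18 UMIs in the rest. The sources of Dnase1l3 and Pecam1 in these lineages were not tested.

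The endothelial barcodes did not hold most of every gene's UMIs. Over the 10 genes together, endothelial barcodes held 30.9% of the UMIs of all kept barcodes in library 2 and 66.6% in library 1. For Pecam1 it was 7.69% in library 2 and 29.9% in library 1, with 79.3% and 58.6% in Kupffer-type barcodes. Stab2 had 14.6% of its UMIs in endothelial barcodes of library 2 and 46.4% in those of library 1. Oit3 had 57.6% in endothelial barcodes of library 2 and 79.9% in those of library 1.

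By CPM, all 10 genes had a lower level in the endothelial barcodes of library 2 than in those of library 1, by unequal amounts, although 5 of them turned to the other side when scaled by the endothelial gate markers. Ehd3 had the largest difference, with a log2 ratio of library 2 over library 1 of -1.97 (-2.09 to -1.85), and Meis2 the next, -1.16 (-1.38 to -0.94). These 2 were at least 2-fold lower in library 2, as were 17.0% of 9350 genes tested, and 0 of the 10 were at least 2-fold higher, as were 6.40% of the genes tested. Stab2 (-0.99), Ptprb (-0.95) and Dnase1l3 (-0.86) followed, all short of 2-fold. Oit3 (-0.52), Gpr182 (-0.51), Egfl7 (-0.45) and Gpihbp1 (-0.32) had smaller ratios, and the interval of Pecam1 (-0.13, from -0.32 to 0.05) spanned 0.

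The median log2 ratio of the 10 genes was -0.69, beside a median of -0.30 over all genes tested. When the genes were scaled by the summed endothelial gate markers instead of all UMIs, a setting chosen after seeing the data, the median became -0.075, and Oit3, Gpr182, Gpihbp1, Egfl7 and Pecam1 turned to ratios above 0. Pecam1 was also just above 0 (0.02) when scaled by a median-of-ratios size factor. Ehd3 stayed at least 2-fold lower in library 2 under each of the 14 settings tried, from -2.43 to -1.36. It is the single gene of the 10 for which this held.

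Other values differed between the same barcodes. The 15 gate markers summed to 7240.2 CPM in endothelial barcodes of library 2 and 11074 CPM in those of library 1, and each of the 15 was lower in library 2. The 8 Kupffer-type markers summed to 3302 CPM in endothelial barcodes of library 2 and 1228 CPM in those of library 1, which is 14.8% and 5.16% of their level in Kupffer-type barcodes, and each of the 8 was higher in library 2. Globin made up 6.40% of UMIs in endothelial barcodes of library 2 and 0.00192% in those of library 1. The part of macrophage, globin or other carried-over RNA in the lower levels of the 10 genes was not tested.

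**Figure D5:**
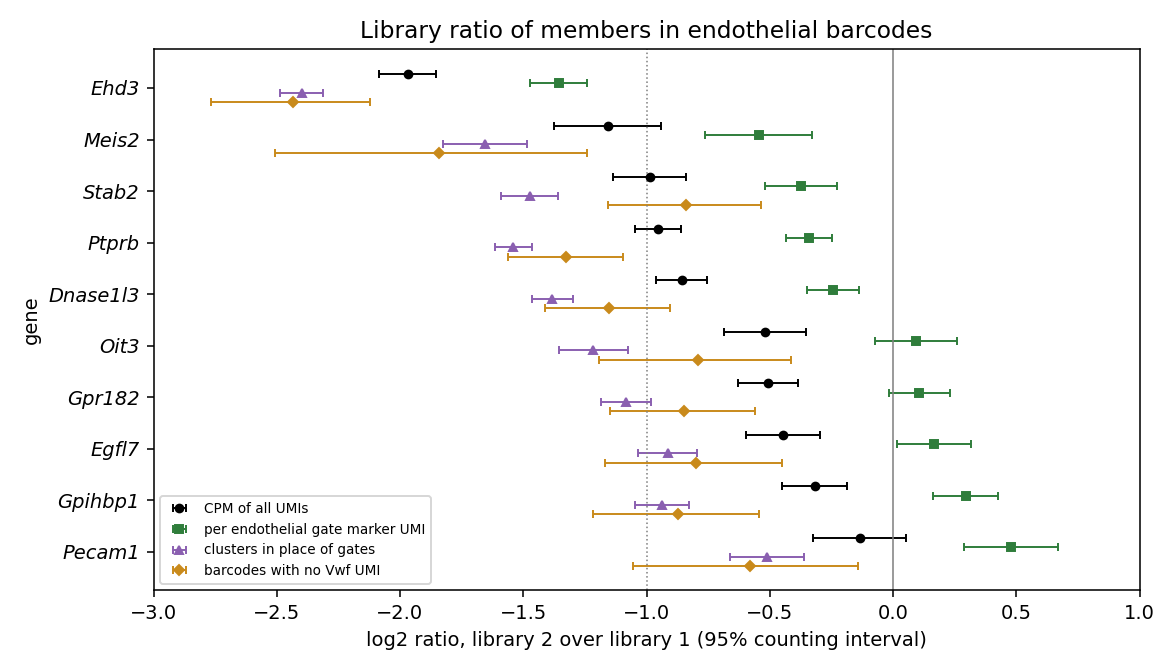
Log2 ratio of library 2 over library 1 (horizontal axis) of each gene in endothelial barcodes with 95% counting intervals: by CPM of all UMIs (circles), per UMI of the endothelial gate markers (squares), with clusters made without the 10 genes in place of gates (triangles) and in barcodes with no Vwf UMI (diamonds). The solid line is at 0 and the dotted line at 2-fold lower; Ehd3 lies left of the dotted line under all of them, from -2.43 to -1.36.

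The same genes in Kupffer-type barcodes gave the level of carried-over or own transcripts there. Ehd3 (-1.33, from -1.50 to -1.16) and Dnase1l3 (-1.28, from -1.43 to -1.13) were at least 2-fold lower in Kupffer-type barcodes of library 2 than in those of library 1. They were 2 of the 7 genes with enough UMIs to be tested, and 9.29% of 8235 genes tested were at least 2-fold lower. At least 2-fold higher were 0 of the 7 and 2.43% of the genes tested. Stab2 had a log2 ratio of -0.51 (-0.60 to -0.41) there and Pecam1 one of 0.34 (0.24 to 0.44), short of 2-fold.

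Genes with a pattern like that of the 10 were sought over the 12 profiles of lineage and library with at least 50 barcodes. The likeness was Pearson's r of log2(CPM + 1) with the mean of the 10 genes, among 7559 genes that are neither gate markers nor in the set. The 8 highest were Bmp2, Clec4g, Tspan7, Cyp4b1, Ushbp1, Tpbgl, Clec1a and Lyve1, with r from 0.98 to 0.97. Bmp2, a secreted signal of the sinusoid that raises hepcidin in hepatocytes, had 1017 CPM in endothelial barcodes of library 2 and 2109 CPM in those of library 1, against 14.5 and 17.4 CPM in Kupffer-type barcodes. Within the set, Gpr182 followed the mean of the other 9 genes most closely (r = 0.96) and Pecam1 least (r = 0.74), with Dnase1l3 (0.78), Egfl7 (0.82) and Stab2 (0.84) next to it. The profiles of 1 library share its depth and free RNA, and the erythroid profile of library 1 holds only shallow shared barcodes. These values are therefore a description only.

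The better detected paralogs of Ehd3 did not share its endothelial pattern. Ehd1 and Ehd4 had 66.6 and 69.9 CPM in endothelial barcodes of library 2 and 69.6 and 60.0 CPM in those of library 1. Their Kupffer-type levels were higher, 132 and 140.3 CPM in library 2 and 118 and 154 CPM in library 1. Ehd2 ran the other way at a low level, with 4 endothelial UMIs in library 2 and 7 in library 1. It was 9.54-fold higher in endothelial than in Kupffer-type barcodes of library 2 and 9.77-fold higher in those of library 1. Notch1, whose signalling Egfl7 can modulate, had 270 CPM in endothelial and 43.0 CPM in Kupffer-type barcodes of library 2, and 454 and 71.5 CPM in those of library 1.

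Other genes of sinusoidal endothelium showed how wide the pattern was. Of 7 scavenger receptors and lectins, 5 were at least 2-fold higher in endothelial than in Kupffer-type barcodes in both libraries. The other 2 were Mrc1, the mannose receptor, with 1225 CPM in endothelial and 716 CPM in Kupffer-type barcodes of library 2 (1928 and 1052 CPM in library 1), and Scarb1, with 76.4 and 151 CPM in library 2 (133 and 141 CPM in library 1). Between libraries, 1 of the 7 was at least 2-fold higher in endothelial barcodes of library 2, the fatty acid and scavenger receptor Cd36 (1.09, from 0.95 to 1.24), and 1 was at least 2-fold lower, Lyve1 (-1.36, from -1.76 to -0.97). Of 15 transcription factors known in endothelium, 12 were at least 2-fold higher in endothelial than in Kupffer-type barcodes in both libraries. The share of all genes tested that were at least 2-fold higher there was 24.3% in library 2 and 24.5% in library 1. Of the 15, 0 were at least 2-fold higher and 4 at least 2-fold lower in endothelial barcodes of library 2 than in those of library 1, namely Sox18 (-2.49), Elk3 (-1.19), Nr2f2 (-1.07) and Maf (-1.05). Over all genes tested between libraries, 6.40% were at least 2-fold higher and 17.0% at least 2-fold lower.

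Among 10 angiocrine genes, which encode signals that endothelium sends to its neighbours, 9 were measured between libraries. Of these, 1 was at least 2-fold higher and 4 at least 2-fold lower in endothelial barcodes of library 2 than in those of library 1, namely Angpt2 (1.17, from 0.28 to 2.10) and, on the lower side, Wnt2, Rspo3, Bmp2 and Jag1. Rspo3 rests on 2 UMIs in library 2 and 21 in library 1 (-2.96, from -6.09 to -0.92), and Jag1 on 6 and 20 UMIs, with an interval that spans 0 (-1.30, from -2.91 to 0.07). Wnt2, a signal of sinusoidal endothelium, had 32.5 CPM in library 2 and 213 CPM in library 1 (log2 ratio -2.71, from -3.45 to -2.04). Bmp2 had a log2 ratio of -1.05 (-1.19 to -0.92). The shares over all genes tested were 6.40% at least 2-fold higher and 17.0% at least 2-fold lower.

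Markers of vessels other than sinusoids were looked at because the 10 genes are not all exclusive to sinusoids. Vwf, the clotting factor of larger vessels and platelets, had 687 CPM (623 to 756) in endothelial barcodes of library 2 and 38.4 CPM (26.3 to 54.2) in those of library 1, a log2 ratio of 4.16 (3.64 to 4.73). At least 1 Vwf UMI was present in 97 of 132 endothelial barcodes of library 2, a share of 73.5% (65.1 to 80.8), and in 8 of 262 of library 1, a share of 3.05% (1.33 to 5.93). Megakaryocyte or platelet markers were at 16.3 CPM in endothelial barcodes of library 2 and 16.8 CPM in those of library 1, on few UMIs. In Kupffer-type barcodes Vwf was also higher in library 2, at 7.12 CPM against 1.34 CPM in library 1 (log2 ratio 2.41, from 1.63 to 3.31). The source of the Vwf UMIs was not tested. Of 10 measured markers of other vessels, 3 were at least 2-fold higher in library 2 (Vwf, Selp and Gja5) and 1 (Cldn5, -1.36) at least 2-fold lower. Selp, the adhesion protein P-selectin, had 50 UMIs in library 2 and 1 UMI in library 1 (log2 ratio 6.08, from 3.54 to 11.41), and Gja5, an arterial connexin named for its call, had 21 UMIs in library 2 and 0 in library 1. Of 5 lymphatic markers 2 had at least 10 CPM in endothelial barcodes of either library, and 1 of these was at least 2-fold higher in library 2. For both lists the shares over all genes tested were 6.40% at least 2-fold higher and 17.0% at least 2-fold lower.

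The Vwf-bearing barcodes of library 2 still carried the 10 genes, a split made after the Vwf values were seen. Those with at least 3 Vwf UMIs, 60 in number, had 11448 CPM of the 10 genes summed, and the 35 barcodes with no Vwf UMI had 8830.1 CPM. Gpihbp1 (log2 ratio 0.72, from 0.38 to 1.08) and Meis2 (0.79, from 0.15 to 1.49) were higher in the barcodes with at least 3 Vwf UMIs, and Ptprb and Ehd3 both had a ratio of 0.49. Stab2 had a ratio of -0.34 (-0.69 to 0.01). The markers used to check the sinusoidal label did not go one way. Lyve1, a marker of the middle of the lobule, had a ratio of -1.49 (-2.28 to -0.68), and Clec4g one of 0.59 (0.28 to 0.91). Fcgr2b had 0.13 (-0.16 to 0.43). The gate marker Flt4 was lower in the barcodes with at least 3 Vwf UMIs, at -0.71 (-1.13 to -0.29). The barcodes with at least 3 Vwf UMIs were deeper, with a median of 5031 UMIs, and those without Vwf had a median of 2292 UMIs. In library 1 the order of the summed levels was the reverse, on few Vwf-bearing barcodes. The 3 barcodes with at least 3 Vwf UMIs had 13661 CPM there, and the 254 without Vwf had 20949.5 CPM. In barcodes with no Vwf UMI, the 10 genes had a median log2 ratio of library 2 over library 1 of -0.86, and 4 of them were at least 2-fold lower in library 2, as were 16.9% of the genes tested in these barcodes.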

How the data were processed

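The authors deposited 1 matrix of UMI counts (whole numbers per gene and barcode) that joins both libraries. It was made with Cell Ranger, per the submitters' processing notes, in version 3.0.1, per the file headers. The submitters' processing notes also name the build GRCm38.p5 and R 3.6.1. The annotation release was not given in the sources used here, and neither was the use of strand in counting or any equalising of depth on joining.

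The filters were a minimum of 200 genes and a maximum of 20% mitochondrial UMIs. Each of 13 lineages was gated on fixed markers (at least 3 with a UMI, and a minimum of marker UMIs per 10000 that was set after seeing the data). No doublet caller was run, and barcodes that passed several gates were set aside. UMIs were summed per lineage and library and scaled to CPM with exact Poisson intervals. Shares have Clopper-Pearson intervals and ratios have conditional exact intervals, at 95%. A ratio against 0 used a floor of 3 UMIs. Called means past 2-fold, among genes with at least 10 CPM on either side. The ratio script was checked on simulated data.

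All 10 genes are always named. Genes of fixed lists were named where they had at least 50 CPM in endothelial barcodes of either library, and the 8 genes most like the set by r. Angpt2, Rspo3, Jag1 and Gja5 lie below that level and were named after their values were seen, because they make up small counts. Ehd2 also lies below it and was named after its values were seen, as the remaining listed paralog of Ehd3. The 10 genes and the lists were chosen with earlier results of these data known. Intervals came from SciPy 1.17.1 under Python 3.11.15, clusters from scanpy 1.11.5 with leidenalg 0.10.2, and tables from pandas 2.3.3. Alternatives were other mitochondrial limits, gene minimums, marker numbers, scalings, clusters in place of gates, and thinning of barcodes.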

Additional observations from a re-analysis of the deposited data

Results flagged for a closer look

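The limit on mitochondrial UMIs removed barcodes that passed the endothelial gate, and the 10 genes were present in them. There were 81 such barcodes in library 2 and 335 in library 1, where they outnumber the 262 kept endothelial barcodes. The 10 genes summed to 7905 CPM in the removed barcodes of library 2 and 11803 CPM in those of library 1, against 11066 CPM and 20728 CPM in the kept endothelial barcodes of library 2 and library 1. With mitochondrial UMIs left out of the total, the removed barcodes held 11134 CPM and the kept ones 12563 CPM in library 2, and the removed ones 17737 CPM and the kept ones 23920.2 CPM in library 1. On both bases the removed barcodes held the lower level. A Vwf UMI was present in 50.6% of the removed barcodes of library 2 and in 0.299% of those of library 1.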

How the results depend on the processing

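All 10 genes stayed at least 2-fold higher in endothelial than in Kupffer-type barcodes in both libraries under every alternative run with that threshold. For single genes, 158 of the endothelial over Kupffer-type ratios moved by less than the counting error and 42 by more, and for the library ratios 83 moved by less and 47 by more. The share of endothelial barcodes became 1.37% in library 2 and 4.06% in library 1 with a mitochondrial limit of 10%, 9.76% in library 1 without shallow shared barcodes, and 9.43% in library 1 with at least 500 genes. It became 2.66% in library 2 and 9.26% in library 1 with barcodes of several gates counted, and 3.99% and 10.0% with clusters in place of gates. The median log2 ratio of endothelial over Kupffer-type barcodes became 5.78 in library 2 and 6.76 in library 1 at the 10% limit. In library 1 it became 6.32 at a 40% limit, 6.32 with barcodes of several gates, and 6.19 with clusters. The number of the 10 genes at least 2-fold lower in library 2 was 4 at the 10% limit, 1 at the 40% limit, 1 with a size factor, 7 with clusters, 1 with scaling by gate markers and 4 without Vwf barcodes. Of all genes tested, 23.1%, 14.6%, 12.4%, 18.6%, 6.15% and 16.9% were at least 2-fold lower under these settings, in the same order. The median library ratio of the 10 was then -0.87, -0.55, -0.53, -1.30, -0.075 and -0.86, in the same order, and the last 2 settings were chosen after seeing the data. Thinning to 1000 UMIs took the median share of endothelial barcodes with a UMI of a gene to 59.4% in library 2 and 73.7% in library 1. The cause of these shifts was not tested. Most cells of the endothelial clusters lie in a cluster of 1 library each: cluster 11 held 2 barcodes of library 2 and 332 of library 1, and cluster 12 held 275 and 17, of which 39.0% passed the Kupffer-type gate. No paired analysis was possible because each genotype has 1 mouse and the barcodes carry no replicate number.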
